A study of Mus musculus with 9 samples.

Results

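Transcripts of 10 genes were followed that are known for high expression in fusion-positive rhabdomyosarcoma, the muscle-type tumour in which PAX3 or PAX7 is joined to FKHR (FOXO1). They were Mycn, Alk, Pipox, Cnr1, Nos1, Abat, Rassf4, Il4ra, Jakmip2 and Dapk1. All 10 were on the array, which read 18193 genes, and they had 24 of the 45037 probe sets tested. Expression was measured on 9 arrays of cells sorted from mouse embryos at embryonic day 9.5, from the hypaxial dermomyotome of the somites between the limbs. PAX3FKHR cells were GFP+ cells of Pax3PAX3-FKHR/GFP embryos, in which 1 Pax3 allele carries GFP and the other, an IRESnlacZ knock-in made active by Cre, encodes PAX3-FKHR, so that no intact Pax3 allele is left. GFP+ cells came from Pax3GFP/+ embryos, which keep 1 intact Pax3 allele. GFP- cells were those without fluorescence. Their Pax3 genotype is not given by the labels, and the study's text places them in GFP/+ embryos in most places but lists wild-type embryos once. Each group had 3 arrays, which the study's methods describe as biological replicates, each prepared from pooled embryos of 1 genotype on a mixed C57BL6/DBA2 background. The embryos were from mothers with a PGK-Cre transgene, which is active from the germ line on, so that PAX3-FKHR was made wherever the Pax3 locus is active and not in muscle progenitors alone. Sorting was by GFP, and the study allows that neural crest cells were among the sorted cells. The treatment note of the labels speaks of forelimb buds, while titles and source give somites, and the samples were taken as somites.

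PAX3-FKHR keeps the DNA binding domains of PAX3, a paired domain and a homeodomain, and carries the strong activation domain of FKHR. In rhabdomyosarcoma the fusion is known to bind distant enhancers together with MYCN and the myogenic factors, and the 10 genes belong to expression signatures that tell fusion-positive from fusion-negative tumours. They serve unlike functions. Mycn is a transcription factor, Alk, Cnr1 and Il4ra are cell surface receptors, Pipox, Abat and Nos1 are metabolic or signalling enzymes, and Rassf4, Jakmip2 and Dapk1 act inside the cell as adaptors or as a kinase.

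The sequence around a transcription start is shown for Pipox and Cnr1, the pair of listed genes whose transcript levels lay apart between PAX3FKHR and GFP+ cells. Each window runs from 250 bases before the annotated start to 50 after it on the strand of the gene, in the RefSeq table of build GRCm38.p6. Pipox lies on the minus strand at chr11:77893823-77894122, and Cnr1 on the plus strand at chr4:33924014-33924313. Capitals mark a match to one of 4 short words, searched on both strands: GTCACGC for the paired domain, TAATTA for the homeodomain, GTAAACA for the forkhead factors and CAGCTG for the E-box of myogenic factors.
Pipox: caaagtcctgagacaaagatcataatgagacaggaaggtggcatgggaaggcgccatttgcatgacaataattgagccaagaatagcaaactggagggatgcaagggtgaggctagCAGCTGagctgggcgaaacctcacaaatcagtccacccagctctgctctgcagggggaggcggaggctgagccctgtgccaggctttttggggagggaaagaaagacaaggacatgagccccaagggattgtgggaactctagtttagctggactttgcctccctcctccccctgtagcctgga
Cnr1: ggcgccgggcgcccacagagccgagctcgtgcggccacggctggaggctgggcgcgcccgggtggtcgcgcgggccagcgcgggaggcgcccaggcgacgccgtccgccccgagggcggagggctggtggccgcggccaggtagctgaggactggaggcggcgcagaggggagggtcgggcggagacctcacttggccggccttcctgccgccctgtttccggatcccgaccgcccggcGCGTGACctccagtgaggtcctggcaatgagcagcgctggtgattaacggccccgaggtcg
In the Pipox window the E-box word stands 134 to 129 bases before the start. In the Cnr1 window the paired domain word stands on the opposite strand, 11 to 5 bases before the start. This was the only one of 10 windows of 8 listed genes with the paired domain word, which 2.09% of all 32851 windows hold. The E-box word was in 3 of the 8 genes (Pipox, Il4ra and Dapk1) and in 16.3% of all windows. The homeodomain word (5.29% of all windows) and the forkhead word (3.65%) were in 0 of the 10. The matches are letters in a window and not measured binding, and no window is shown for Abat or Jakmip2. Of the 3 windows of Cnr1 the one shown is that with a match, and the other 2, which start downstream of it, held none of the 4 words.

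Values are log2 RMA values, in which 1 unit is a doubling, and a gene is read from its brightest probe set, the one with the highest mean over the 9 arrays. A gene was called different at an adjusted p under 0.05 (limma, Benjamini-Hochberg over all 45037 probe sets) and a log2 difference of at least 0.5, which is 1.41-fold. Errors after ± are SEs of a log2 difference between groups of 3 arrays unless an SD is named. Array medians were 4.63 to 4.68, which RMA brings together by design, so they cannot show whether an array stood apart. Correlations within groups were 0.996 to 0.998. Single genes could still differ within a group. PAX3FKHR array 1 was lowest of its group for Hmga2 (12.51 against 12.76 and 12.83) and highest for Aadat (5.10 against 4.46 and 4.27). The Pax3 probe set read 8.29 ± 0.033 in PAX3FKHR, 9.20 ± 0.125 in GFP+ and 4.50 ± 0.307 in GFP- cells (SD). Although no intact Pax3 allele is left in PAX3FKHR cells, the 3 Pax3 probe sets read 9.82- to 53.3-fold above GFP- cells there and 1.73- to 1.88-fold below GFP+ cells. Which transcripts of the targeted alleles they detect was not tested, and 1 of them (1430335_a_at) held 1 identical value in all 3 PAX3FKHR arrays. All 10 measured dermomyotome markers were called higher in GFP+ than in GFP- cells, which fits the labelled tissue. Pax3, whose locus carries the GFP used for the sort, is among them. Also called higher were 5 of 6 sclerotome, 6 of 10 differentiating muscle and 4 of 7 neural crest markers, with 1 neural crest marker lower. Of the 10 listed genes 5 were above the array median on all 9 arrays (Mycn, Dapk1, Abat, Rassf4 and Nos1). Pipox, Cnr1 and Jakmip2 were above it on some arrays only, and every probe set of Alk and Il4ra was below it throughout. At such dim values RMA compresses differences, and a gene that is off cannot be told from one that is weakly on.

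Of the 10 genes 1 was called higher in PAX3FKHR than in GFP+ cells, namely Pipox, and 0 were called lower. Among all 18193 genes 1.31% were called higher and 0.715% lower in that comparison. The median difference of the 10 genes was -0.055 on the log2 scale against -0.0015 over all genes, and 3 of the 10 (Pipox, Cnr1 and Abat) were positive. At an unadjusted p under 0.05 limma counted 2 higher and 0 lower, and the local pooled error test, the one the study used, called 1 higher and 0 lower. Over all 18193 genes the unadjusted limma counts were 1136 higher and 876 lower, and the local pooled error test called 266 higher and 132 lower. In 2 genes, Pipox and Cnr1, the 3 PAX3FKHR values all lay above the 3 GFP+ values. Such a gap in either direction was found in 14.6% of all genes. By probe set 1 of the 24 was called, where 1.36% of all probe sets were. The 14 dimmer probe sets of the listed genes ran from -0.22 to 0.14 and 0 were called by either test, with 1 (a Nos1 probe set at -0.22) at an unadjusted p under 0.05.

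More of the listed genes lay apart between GFP+ and GFP- cells, and those called were lower in the Pax3-expressing cells. The same direction was found over all genes. There 368 were called between PAX3FKHR and GFP+ cells and 1267 between GFP+ and GFP- cells, of which 918 were lower and 349 higher in GFP+ cells. Cnr1, Rassf4 and Jakmip2, 3 of 10, were called lower in GFP+ cells and 0 were called higher, where 5.05% of all genes were called lower and 1.92% higher. When the mean over the probe sets of a gene was used in place of the brightest, 0 of the 10 were called, with differences of -0.28 for Cnr1, -0.48 for Rassf4 and -0.22 for Jakmip2. Over all genes 980 were then called, against 1267. By the brightest probe set the median difference was -0.24 for the 10 genes and 0.0078 for all genes. In 4 of the 10 the groups did not overlap, all with GFP+ below, against 28.2% of all genes in either direction. By probe set 3 of 24 were called (4.65% of all). At an unadjusted p under 0.05 limma counted 5 lower and 0 higher, and the local pooled error test called 3 lower and 0 higher. Over all 18193 genes the unadjusted limma counts were 2647 lower and 1797 higher, and the local pooled error test called 934 lower and 346 higher. PAX3FKHR cells were set against the same GFP- arrays, so the following counts share samples with those above. Rassf4 and Jakmip2 were called lower and 0 genes higher, where 5.20% of all genes were called lower and 2.63% higher. The unadjusted limma count was 3 lower and 1 higher, and the local pooled error test called 2 lower and 0 higher. Over all 18193 genes these counts were 2374 lower and 1745 higher by limma, and 927 lower and 487 higher by the local pooled error test. The groups did not overlap in 5 of 10 genes (25.5% of all genes), 4 with PAX3FKHR below and 1, Pipox, above. By probe set 2 of 24 were called, where 5.35% of all were.

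**Figure D1:**
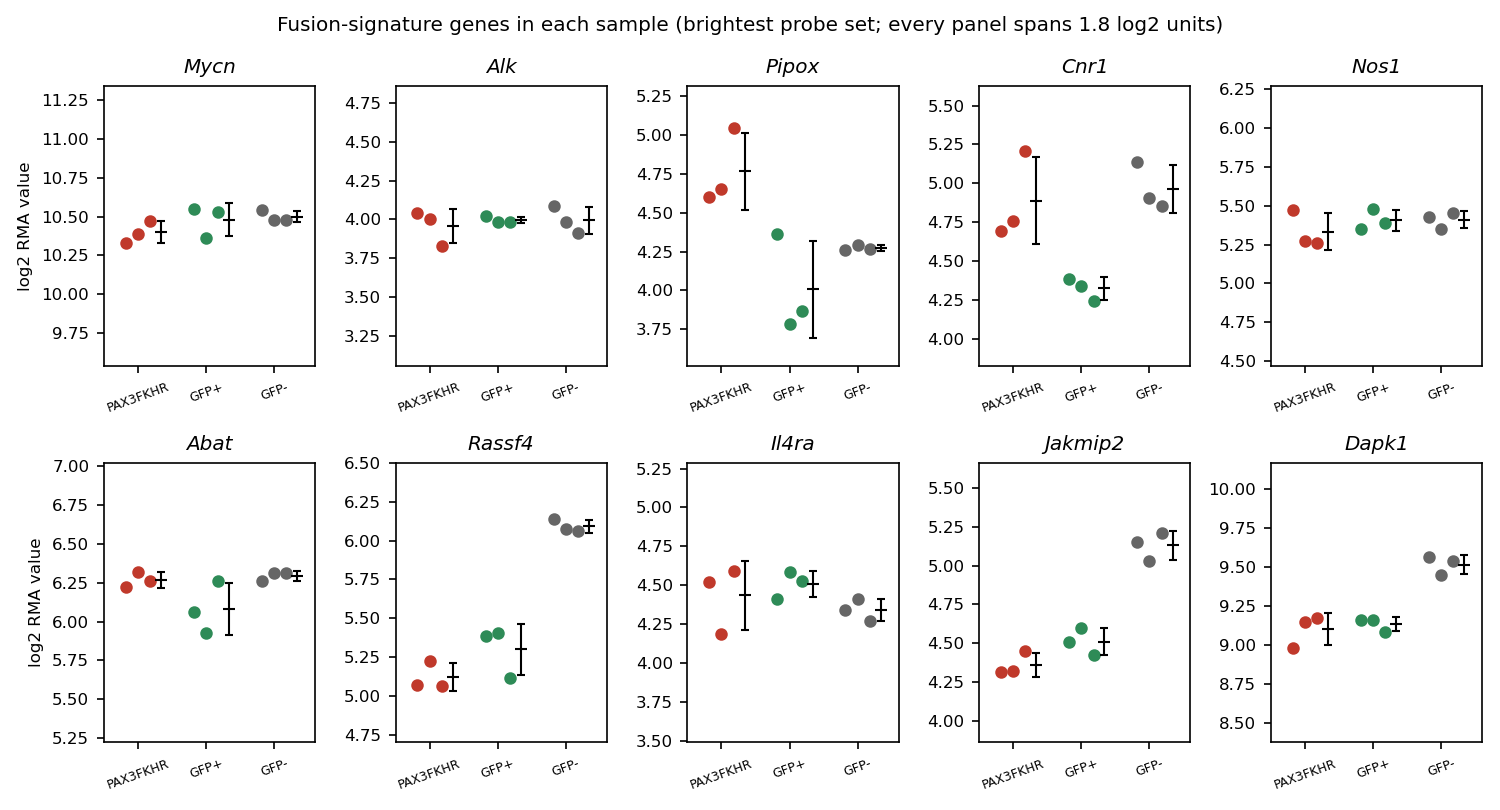
Log2 RMA value of the brightest probe set of each of the 10 genes (vertical axis, each panel spanning the same number of log2 units) in the 3 PAX3FKHR, 3 GFP+ and 3 GFP- samples, 1 point a sample, with the group mean and SD as a black bar. Pipox and Cnr1 show PAX3FKHR points clear of the GFP+ points, Rassf4, Jakmip2 and Dapk1 show GFP- points above both other groups, and Mycn lies between 10.33 and 10.55 in all 9 samples.

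Among the enzymes, Pipox was the gene called with PAX3-FKHR. It encodes the peroxisomal sarcosine and pipecolic acid oxidase, an enzyme of lysine and glycine-related metabolism. Its single probe set (1449374_at) read 4.60, 4.65 and 5.05 in the 3 PAX3FKHR samples. The GFP+ samples read 4.37, 3.78 and 3.87. The GFP- samples read 4.26, 4.29 and 4.26. The highest GFP+ value was thus close to the lowest PAX3FKHR value, and the GFP- samples were tight and lay between the group means. Pipox was higher in PAX3FKHR than in GFP+ cells by 0.76 ± 0.16, or 1.69-fold, with a 95% interval from 0.39 to 1.12 (limma, adjusted p = 0.0487). This call stood just inside the threshold. It was lost when any of the 3 PAX3FKHR arrays was left out (adjusted p = 0.102, 0.180 and 0.222 without arrays 1, 2 and 3) or without GFP+ array 2 or 3 (0.263 and 0.266), and it was kept without GFP+ array 1, while the difference stayed between 0.62 and 0.94. Against GFP- cells Pipox was higher by 0.49 ± 0.12 with adjusted p = 0.0227, under the 0.5 limit and so not called. GFP+ and GFP- cells differed by -0.27 ± 0.14 and overlapped (adjusted p = 0.334). Without GFP+ array 1 that difference was -0.45 with adjusted p = 0.0115, still under the limit. Over 7 of 9 arrays the probe set read below the array median.

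The genes whose values followed Pipox most closely over the 9 arrays were Cdk19, a kinase of the Mediator complex, Pdxp, the pyridoxal phosphate phosphatase, and Atxn3, a deubiquitinase, with Pearson correlations of 0.974, 0.961 and 0.954. They are the 3 highest among 18193 genes, and the 9 arrays share group differences, so the values are a description only. Their PAX3FKHR minus GFP+ differences were 0.39, 0.18 and 0.47. For Cdk19 the values were 7.19, 7.27 and 7.49 in PAX3FKHR, 7.17, 6.84 and 6.78 in GFP+ and 7.15, 7.07 and 7.05 in GFP- samples, with the same high GFP+ array 1 that Pipox shows. The neighbours of Pipox in its pathway were not called with PAX3-FKHR. In the list of lysine and sarcosine breakdown, 8 genes were measured and 0 were called by limma or the local pooled error test, with 1 higher and 1 lower at an unadjusted p under 0.05. The largest differences were those of Dmgdh, the dimethylglycine dehydrogenase that makes sarcosine, at -0.31 ± 0.13, and Pex5, the import receptor for peroxisomal enzymes, at 0.30 ± 0.11 (limma, adjusted p = 0.469 and 0.317).

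Abat encodes the mitochondrial transaminase that breaks down GABA. The brightest Abat probe set (1433855_at) read 6.22, 6.32 and 6.26 in PAX3FKHR samples, 6.06, 5.93 and 6.26 in GFP+ samples and 6.26, 6.32 and 6.31 in GFP- samples. GFP+ array 3 lay at the level of the other groups and the other GFP+ arrays below it. The difference of 0.18 ± 0.099 between PAX3FKHR and GFP+ cells did not pass the test (limma, adjusted p = 0.602), and its 95% interval of -0.034 to 0.40 leaves room for at most 132% of the GFP+ level. GFP+ and GFP- cells differed by -0.21 ± 0.091 (adjusted p = 0.229). The dimmer probe set lay between 3.46 and 3.69 throughout. In the list of GABA synthesis, uptake and breakdown 0 of 7 genes were called with PAX3-FKHR by either test, and 1 was higher at an unadjusted p under 0.05. The widest apart were Aldh9a1, which oxidises aminobutyraldehyde to GABA, at 0.23 ± 0.092 and Slc6a13, a GABA transporter, at -0.22 ± 0.10.

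Nos1 encodes the neuronal nitric oxide synthase, which in muscle is bound to the dystrophin complex. Its 4 probe sets gave no call in any comparison. The brightest (1429887_at) lay between 5.26 and 5.48 in all 9 samples, with differences of -0.072 ± 0.095 between PAX3FKHR and GFP+ cells and -0.0040 ± 0.077 between GFP+ and GFP- cells. The upper end of the first interval, 0.14, stands for 110% of the GFP+ level. The probe sets did not agree in sign, since 1422949_at was 0.018 higher in PAX3FKHR cells and 1438483_at and 1458626_at were 0.084 and 0.22 lower. Of 12 measured genes of the list of nitric oxide synthases and cyclic GMP, 1 was called lower with PAX3-FKHR: Prkg1, the cyclic GMP-dependent protein kinase. It read 7.20, 7.39 and 7.39 in PAX3FKHR samples against 8.02, 7.86 and 7.82 in GFP+ samples, a difference of -0.58 ± 0.090 or 1.49-fold (limma, adjusted p = 0.00776). The median over the 12 genes was 0.0028, and at a limit of 1.5-fold, set after the values were seen, Prkg1 was not called. Its GFP- values of 7.13, 7.30 and 7.13 overlapped those of PAX3FKHR cells. The local pooled error test called 0 genes of this list.

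The receptors were at low values. Cnr1 encodes the cannabinoid receptor CB1, a Gi/o-coupled receptor that is abundant in neurons. Its brightest probe set (1434172_at) read 4.69, 4.76 and 5.21 in PAX3FKHR samples. The GFP+ samples were lower at 4.39, 4.34 and 4.24, all below the array median. The GFP- samples read 5.14, 4.90 and 4.85. PAX3FKHR and GFP- values therefore overlapped, and the GFP+ values lay below all others. GFP+ cells were 0.64 ± 0.097 lower than GFP- cells, or 1.56-fold, and were called so (limma, adjusted p = 0.00194). PAX3FKHR cells were 0.56 ± 0.13 higher than GFP+ cells, which is 1.48-fold with a 95% interval from 0.27 to 0.86, but the adjusted p of 0.0718 missed the threshold. It was called higher under 2 alternatives, 1 fit of all 9 arrays (adjusted p = 0.0269) and leaving out dim probe sets (0.0398), and reached 0.308 with an array left out. PAX3FKHR and GFP- cells differed by -0.078 ± 0.14. The other Cnr1 probe set (1419425_at), below the array median on all 9 arrays, was not called, with differences of -0.057 ± 0.11 between PAX3FKHR and GFP+ cells and 0.087 ± 0.10 between GFP+ and GFP- cells. Of 9 measured genes of the endocannabinoid system 0 were called with PAX3-FKHR by either test and 0 had an unadjusted p under 0.05. The widest apart were Dagla, which makes the ligand 2-arachidonoylglycerol, at -0.23 ± 0.11 and Napepld, which makes anandamide, at -0.20 ± 0.13.

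Alk encodes a receptor tyrosine kinase of the developing nervous system. Its single probe set lay between 3.83 and 4.09 in all 9 samples, below every array median. The difference between PAX3FKHR and GFP+ cells was -0.038 ± 0.089, with an interval that ends at 112% of the GFP+ level, and GFP+ and GFP- cells differed by 0.0017 ± 0.078. Among 5 measured genes for its relatives, ligands and partners, 0 were called with PAX3-FKHR by either test and 1 was lower at an unadjusted p under 0.05. They were led by Ptprz1, the phosphatase receptor for pleiotrophin, at -0.26 ± 0.096 and Ltk, the closest relative of Alk, at -0.24 ± 0.14. Il4ra encodes the receptor chain shared by interleukin-4 and interleukin-13. Its brightest probe set lay between 4.19 and 4.59, with a difference of -0.074 ± 0.12 for PAX3FKHR against GFP+ cells and 0.17 ± 0.084 for GFP+ against GFP- cells. Its 3 probe sets were below the array median throughout and were not called. Leukocytes, which use this receptor, were read by a list of 8 markers whose summed level was 216.8 to 652 in PAX3FKHR, 375 to 489 in GFP+ and 402.5 to 444.2 in GFP- samples on the linear scale, and 0 of the 8 were called with PAX3-FKHR. The spread among PAX3FKHR samples came from Laptm5, a lysosomal membrane protein of blood cells, at 8.96, 7.82 and 6.24 on the log2 scale. Without it the sums were 141.1 to 154 in PAX3FKHR, 148.5 to 149.8 in GFP+ and 205 to 222.8 in GFP- samples. Csf1r, the receptor for macrophage colony-stimulating factor, was called lower in GFP+ (-1.24) and in PAX3FKHR cells (-1.57) than in GFP- cells. The list of interleukin-4 and interleukin-13 signalling had 12 measured genes with 0 called by either test and 0 at an unadjusted p under 0.05. The largest difference was 0.15 ± 0.10 for Irs1, an adaptor of insulin and interleukin-4 receptors, followed by 0.12 ± 0.11 for the decoy receptor Il13ra2.

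**Figure D2:**
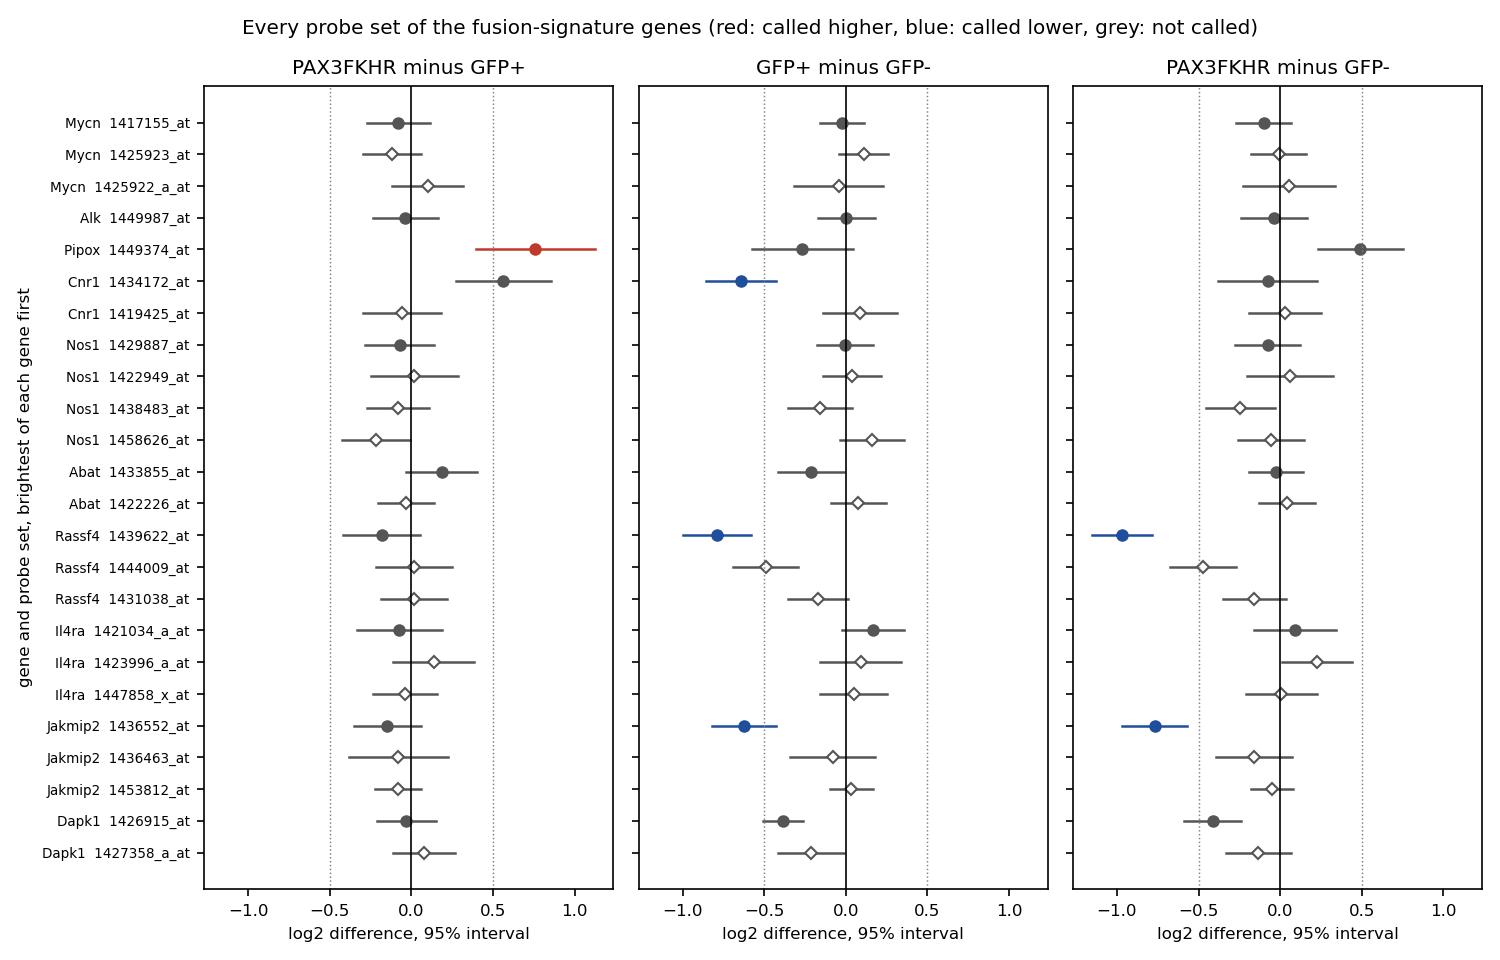
Log2 difference with its 95% interval (horizontal axis) for each of the 24 probe sets in the 3 comparisons; filled circles are the brightest probe set of a gene, open diamonds its dimmer ones, and dotted lines the limit of 0.5. With PAX3-FKHR 1 probe set, that of Pipox, is called higher, and against GFP- cells the brightest probe sets of Rassf4 and Jakmip2 are called lower in both sorted groups and that of Cnr1 in GFP+ cells.

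Rassf4 and Jakmip2 were called lower in both PAX3FKHR and GFP+ cells than in GFP- cells, and were not called between PAX3FKHR and GFP+ cells. Rassf4 encodes an adaptor of the Ras association family, which binds the Mst kinases of the Hippo pathway. Its brightest probe set (1439622_at) read 5.07, 5.22 and 5.07 in PAX3FKHR, 5.39, 5.41 and 5.11 in GFP+ and 6.14, 6.08 and 6.06 in GFP- samples. The GFP- samples were above all 6 others. GFP+ cells were lower by 0.79 ± 0.093, or 1.73-fold (limma, adjusted p = 0.000367), and PAX3FKHR cells by 0.97 ± 0.084, or 1.96-fold (adjusted p = 1.34e-05). PAX3FKHR and GFP+ cells differed by -0.18 ± 0.11 (adjusted p = 0.640), and the interval ends at 104% of the GFP+ level. A second probe set, 1444009_at, was lower by 0.49 ± 0.090 in GFP+ and by 0.47 ± 0.092 in PAX3FKHR cells, at adjusted p = 0.0065 and 0.00624 but under the 0.5 limit. The dimmest, below the array median throughout, was not called. Within the Ras association family and the Mst kinases 0 of 11 genes were called with PAX3-FKHR by either test, and 0 had an unadjusted p under 0.05. Sav1, the Mst scaffold, stood at 0.13 ± 0.086 and Rassf6, another family member, at -0.13 ± 0.12.

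Jakmip2 encodes a coiled-coil protein of a family that binds Janus kinases and microtubules and is abundant in neurons. The brightest of its 3 probe sets (1436552_at) read 4.31, 4.32 and 4.45 in PAX3FKHR, 4.51, 4.60 and 4.42 in GFP+ and 5.15, 5.03 and 5.21 in GFP- samples. Again the GFP- samples were clear of the 6 others, which overlapped. GFP+ cells were lower than GFP- cells by 0.62 ± 0.087, or 1.54-fold (limma, adjusted p = 0.00121), and PAX3FKHR cells by 0.77 ± 0.091, or 1.71-fold (adjusted p = 0.000179). The difference between PAX3FKHR and GFP+ cells was -0.15 ± 0.093 (adjusted p = 0.679). This probe set was below the array median on 6 of 9 arrays, those of the PAX3FKHR and GFP+ cells. The other 2 probe sets were below it throughout and not called, and 1 of them (1453812_at) held 1 identical value in all 3 GFP- arrays. Its relatives Jakmip1 and Jakmip3 and the motor protein Kif5b gave 0 calls of 3 with PAX3-FKHR by either test and 0 at an unadjusted p under 0.05, with Kif5b at -0.16 ± 0.085 and Jakmip3 at -0.072 ± 0.10. Jakmip1, picked out after its values were seen, was like Jakmip2 in the sort, with 4.22, 4.16 and 4.19 in GFP+ against 5.19, 4.83 and 5.02 in GFP- samples (-0.82 ± 0.10, limma, adjusted p = 0.000463).

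Markers of other cell types were also unequal across the sort. Of 10 neural markers 7 were called lower in GFP+ than in GFP- cells, and their summed level on the linear scale was 1538 to 1758 in PAX3FKHR, 1419 to 1555 in GFP+ and 2679 to 2829 in GFP- samples. Of 7 endothelial markers 5 were called lower (summed 475.2 to 520.7, 490.7 to 524.2 and 786.4 to 832.8 in the same order), as were all 6 erythroid markers and 4 of 7 of surface ectoderm and endoderm. In all 3 groups the 10 neural markers were read above the array median on at least 1 array. The part of these cell types in the values of Cnr1, Rassf4, Jakmip2 and Dapk1 was not tested, and in such bulk samples fewer cells of a type and less RNA per cell cannot be told apart. Between PAX3FKHR and GFP+ cells the neural list had 2 genes called higher (Neurog1 by 1.11 and Elavl4 by 0.84) and 1 lower (Neurog2, at -0.78), the neural crest list 1 of 7 higher and 0 lower, and the differentiating muscle list 9 of 10 lower. The dermomyotome list had 4 of 10 higher and 2 lower and the sclerotome list 1 of 6 higher and 2 lower. Of 6 primitive erythroid markers 1 was higher, the embryonic globin Hbb-y by 0.65, and their summed level was 1974 to 2284 in PAX3FKHR and 1427 to 1504 in GFP+ samples. Of the leukocyte, endothelial and surface lists 0 were called. Their part in the values of Pipox and Cnr1 was not tested.

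Dapk1 and Mycn were bright in all samples. Dapk1 encodes a calcium and calmodulin-regulated kinase that promotes cell death and autophagy. By its brightest probe set (1426915_at) it read 8.98, 9.15 and 9.17 in PAX3FKHR, 9.16, 9.16 and 9.08 in GFP+ and 9.56, 9.45 and 9.54 in GFP- samples. The GFP- samples were above both other groups, by an amount under the 0.5 limit: GFP+ cells differed from them by -0.38 ± 0.055 (limma, adjusted p = 0.00146) and PAX3FKHR cells by -0.41 ± 0.080 (adjusted p = 0.00618), so neither was called. PAX3FKHR and GFP+ cells differed by -0.031 ± 0.082, and the interval covers 86.4% to 111% of the GFP+ level. The dimmer probe set differed by 0.076 ± 0.085 between PAX3FKHR and GFP+ cells and by -0.21 ± 0.090 between GFP+ and GFP- cells. Of 5 measured genes of the death-associated kinases and their partners 0 were called with PAX3-FKHR by either test and 0 had an unadjusted p under 0.05, led by Becn1, a core autophagy protein, at 0.17 ± 0.11 and the relative Dapk3 at -0.16 ± 0.12.

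Mycn encodes the N-Myc transcription factor of embryonic progenitors, which is amplified in many neuroblastomas and in part of fusion-positive rhabdomyosarcomas. By its brightest probe set (1417155_at) the samples read 10.33, 10.39 and 10.47 in PAX3FKHR, 10.55, 10.36 and 10.53 in GFP+ and 10.54, 10.48 and 10.48 in GFP- samples. All 9 samples thus lay within 0.223 log2 units, with the PAX3FKHR values overlapping those of GFP+ cells and just below those of GFP- cells. The difference between PAX3FKHR and GFP+ cells was -0.080 ± 0.087 (limma, adjusted p = 0.849), with a 95% interval from 82.8% to 108% of the GFP+ level. Those of the other comparisons were -0.022 ± 0.061 and -0.10 ± 0.077. The dimmer probe sets gave differences of -0.12 ± 0.080 and 0.10 ± 0.098 between PAX3FKHR and GFP+ cells. Of 10 measured genes of the Myc family 0 were called with PAX3-FKHR by either test and 0 had an unadjusted p under 0.05, the widest apart being the repressor Mnt at 0.14 ± 0.092 and Max, the partner of all Myc proteins, at 0.13 ± 0.11.

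Over the 10 lists of families and partners together, 82 of 92 genes were measured. With PAX3-FKHR 0 were called higher and 1 lower, with a median of 0.019, where limma counted 3 higher and 3 lower at an unadjusted p under 0.05 and the local pooled error test called 0 in either direction. Between GFP+ and GFP- cells 6 were called higher and 6 lower, with a median of -0.024. Among all genes 1.92% were called higher and 5.05% lower in that comparison. Between PAX3FKHR and GFP+ cells these shares were 1.31% and 0.715%. The following were picked out after their values were seen. Myc itself was 0.87 ± 0.066 higher in GFP+ cells, with 8.69, 8.86 and 8.74 against 7.96, 7.87 and 7.85 in GFP- samples, where Mycn differed by -0.022. Dagla was higher by 0.81 ± 0.12 and Irs2, an insulin and interleukin-4 receptor adaptor, by 0.71 ± 0.074. Rassf5, a relative of Rassf4, was lower by 1.04 ± 0.10 and Nos3, the endothelial nitric oxide synthase, by 0.76 ± 0.089, each with GFP- values above those of all other samples.

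**Figure D3:**
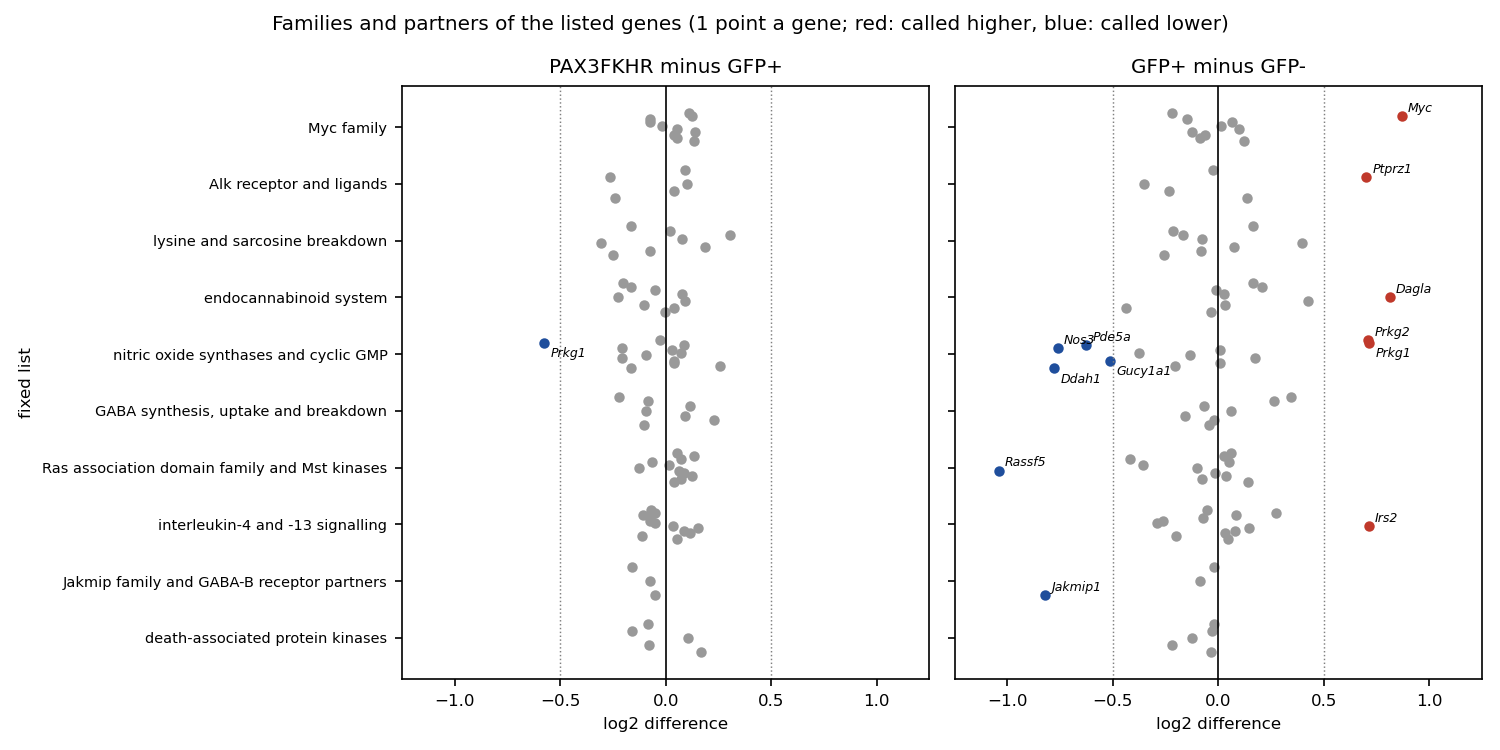
Log2 difference of each measured gene (1 point a gene, brightest probe set) in the 10 lists of families and partners of the listed genes, for PAX3FKHR minus GFP+ on the left and GFP+ minus GFP- on the right, with called genes coloured and named and dotted lines at the limit of 0.5. On the left 1 of 82 genes, Prkg1, is called, and on the right 12 are, 6 higher and 6 lower.

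A second list held other genes known from fusion-positive rhabdomyosarcoma, several of which the study itself reports as changed in these arrays, so that their calls are a description and no independent evidence. Of 16 genes 15 were measured. With PAX3-FKHR 4 were called higher and 0 lower, where 1.31% of all genes were called higher and 0.715% lower, and the median was 0.11. At an unadjusted p under 0.05 limma counted 4 higher and 1 lower, and the local pooled error test called 4 higher and 0 lower. The 4 were Met, the receptor for hepatocyte growth factor, Fgf8, an FGF ligand, Grem1, an extracellular BMP inhibitor, and Tfap2b, an AP-2 transcription factor. Met read 8.72, 8.74 and 8.90 in PAX3FKHR against 7.20, 7.02 and 7.05 in GFP+ samples, a difference of 1.70 ± 0.086 or 3.24-fold. Fgf8 read 4.60, 5.51 and 5.10 against 3.56, 3.71 and 3.55, a difference of 1.46 ± 0.19, and its GFP+ values were below the array medians. Grem1 and Tfap2b rose by 0.68 ± 0.13 and 0.59 ± 0.084. The adjusted p was 0.0214 (Grem1) or less (limma) in all 4. Olig2, a marker of fusion-positive tumours that is also neural, was not called and is named as an exception. It stayed between 3.28 and 3.36 in PAX3FKHR and 2.98 and 3.31 in GFP+ samples.

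Fgfr4 is a case where the choice of probe set decides the reading, and it was picked out after its values were seen. Its brightest probe set (1427846_x_at) read 6.06, 5.81 and 5.66 in PAX3FKHR and 5.93, 5.78 and 5.96 in GFP+ samples and was not called. A dimmer one (1418596_at) read 5.84, 6.10 and 6.12 against 5.07, 4.98 and 5.06, and was higher by 0.98 ± 0.099, or 1.98-fold (limma, adjusted p = 0.000393). The suffix of the first marks probes that may match other transcripts. The remaining Fgfr4 probe sets (1427776_a_at, 1427777_x_at and 1427845_at) were not called. The study lists Fgfr4 as raised with PAX3-FKHR and as a direct Pax3 target. Among the 10 listed genes 0 of the 14 dimmer probe sets gave a call that the brightest did not. Of the 7 genes listed for fusion-negative tumours 1 was called with PAX3-FKHR, the Notch target Hes1, higher by 0.68 ± 0.085. By either test 0 were called lower, with 2 lower at an unadjusted p under 0.05. Hes1 held 1 identical value in all 3 GFP+ arrays, so that group added no spread to its SE.

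**Figure D4:**
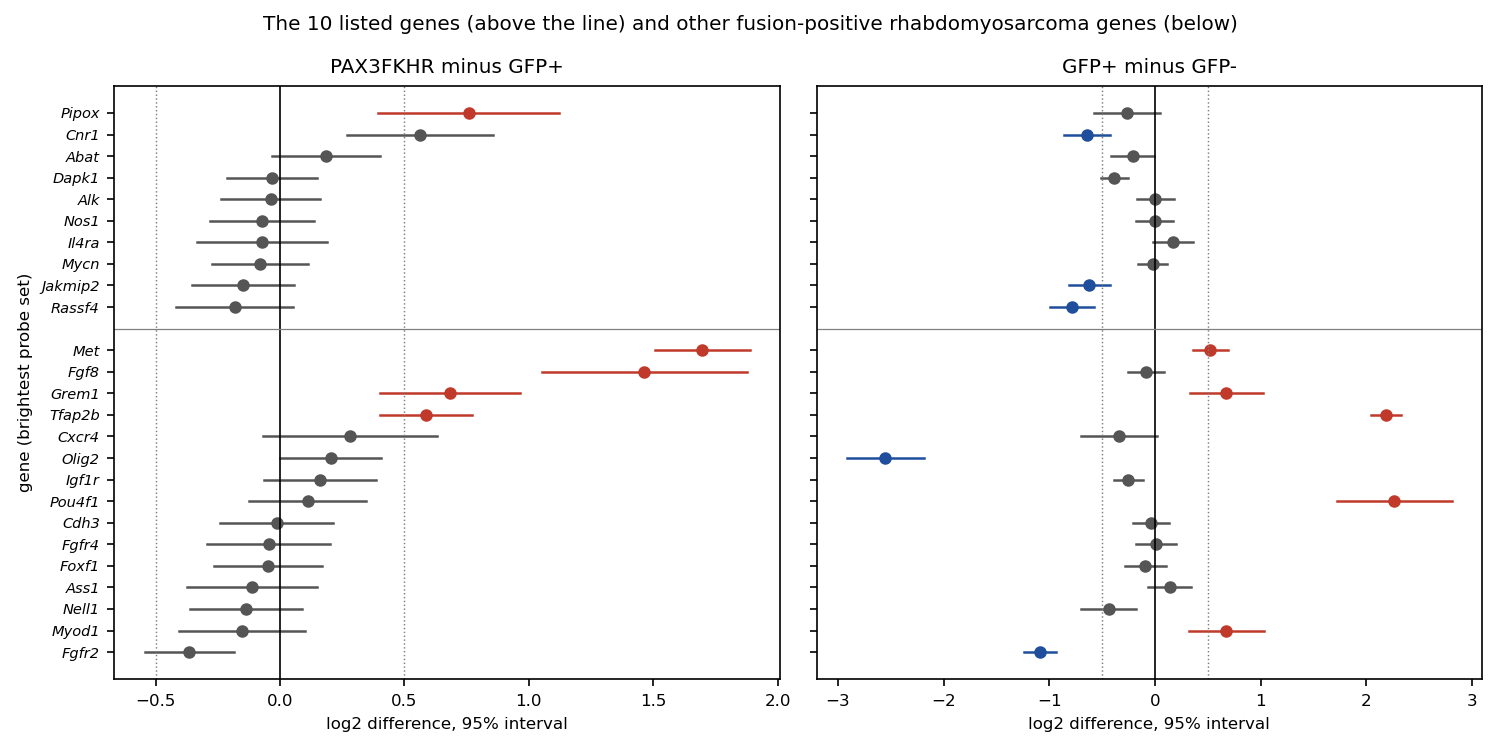
Log2 difference with its 95% interval (horizontal axis, brightest probe set) for the 10 listed genes above the line and 15 other genes known from fusion-positive rhabdomyosarcoma below it, for PAX3FKHR minus GFP+ on the left and GFP+ minus GFP- on the right; red and blue mark genes called higher and lower. With PAX3-FKHR 1 of 10 genes above the line is called higher and 4 of 15 below it.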

How the data were processed

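RNA was amplified in 2 cycles from its 3′ end and hybridized to Affymetrix mouse genome arrays. The authors deposited log2 values from RMA, a method that subtracts background, brings the arrays to 1 distribution and joins the probes of a probe set. Its version, and whether all arrays were normalized at once, was not given in the sources used here. Of 45101 probe sets 45037 were tested, and 64 were controls. The platform table names a single gene for 34945 of those tested and several for 932, and 9160 went unnamed. The symbols of all 10 listed genes were current by their Entrez identifiers, and 8 had several probe sets. Groups were taken from the labels, 3 arrays each.

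Each comparison was a separate fit of its 6 arrays in limma 3.58.1 (R 4.3.3, lmFit and eBayes with intensity trend, two-sided). Genes were called at adjusted p under 0.05 and log2 difference of at least 0.5, a log2 limit that the study states beside a fold of 1.5, which is slightly higher and was run as an alternative chosen after seeing the data. The local pooled error test of the study was rebuilt and run as an alternative. On simulated data for PAX3FKHR against GFP+ cells over 45037 probe sets limma recovered 89% of 100 differences of log2 size 1 with 2 false calls, and the local pooled error test 100% with 137. The noise was normal with the SD of each probe set, which the local pooled error test replaces by a spread pooled over like intensities. Its false calls therefore belong to that setting and to the rebuilt test. Smaller differences, such as those of the listed genes, were not simulated, so recovery at their size is not known. The absence calls the study filtered on were not used here. After RMA a rise or fall common to all transcripts of a group is no longer visible. The number of arrays, 3 a group, limits the precision. Nothing in the labels says how embryos were divided between replicates. The p-values set a difference against the spread between these pooled samples, not between single embryos.

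The 10 genes and all lists were chosen with earlier results of these data known. The lists were 2 of rhabdomyosarcoma genes (16 fusion-positive, 7 fusion-negative), 10 of families and partners and 9 of cell types, and of their 199 symbols, the 10 genes included, 185 were measured. Genes named from them were those called in PAX3FKHR against GFP+ cells or, with none called, the 2 widest apart, and exceptions are marked. For the called member the 3 genes of highest Pearson correlation over the 9 arrays were named. Marker levels were summed as linear values. Alternatives were 1 fit of all 9 arrays, no intensity trend, the local pooled error test, no dim probe sets (mean under 4.66), the mean over probe sets, arrays centred on their median, adjusted p alone, a limit of 1, a replicate block, and each array left out.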

Additional observations from a re-analysis of the deposited data

How the results depend on the processing

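Between PAX3FKHR and GFP+ cells 1 of the 10 genes was called. The count was 2 in 1 fit of all 9 arrays (Pipox and Cnr1), 0 without the intensity trend, 0 at a log2 limit of 1, and 0 to 1 when arrays were left out. It stayed 1 when dim probe sets were left out, but Pipox was among the genes dropped, 7 of 10 being kept, and the 1 was Cnr1. Over all genes 368 were called, with 401 in 1 fit of all 9 arrays, 364 without the intensity trend and 359 without dim probe sets. Pipox had an adjusted p of 0.0512 without the trend and a difference of 0.77 with arrays centred on their median (0.0313). Between GFP+ and GFP- cells the count of 3 became 0 with the mean over the probe sets of a gene and 0 at a limit of 1. That mean gave 980 calls over all genes, against 1267. Between PAX3FKHR and GFP- cells the count of 2 became 1 with the mean over probe sets, 4 with adjusted p alone, 0 at a limit of 1, and 2 to 3 when arrays were left out. The causes were not tested, apart from the stricter or looser limits themselves. No difference of a listed gene that was called changed sign.

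Whether the sample numbers pair the samples is not given by the labels and could not be told from the values. Deviations of same-numbered samples correlated at -0.157 to 0.183, and those of differently numbered samples at -0.184 to 0.184. Between GFP+ and GFP- samples the same-numbered correlations were 0.147, 0.121 and 0.0075, and the others ran from -0.162 to 0.059. With the numbers as a replicate block 0 genes were called between PAX3FKHR and GFP+ cells (Pipox, adjusted p = 0.0624), and 3 and 2 in the other comparisons as before. Over all genes the block gave 358, 1272 and 1433 calls against 368, 1267 and 1424. Those counts moved by over 1.5 times at a limit of 1, to 98, 523 and 593, with adjusted p alone in the comparisons with GFP- cells, to 2282 and 2259, and for PAX3FKHR against GFP+ cells without PAX3FKHR array 2, to 228, and without GFP+ array 2, to 239. At a fold of at least 1.5, chosen after seeing the data, the counts of the 10 genes stayed 1, 3 and 2, those of the 82 partner genes were 0, 11 and 7, and those of all genes 286, 1050 and 1170. Dim values limit what can be read for Alk, Il4ra, Pipox, Cnr1, Jakmip2 and Fgf8.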
